A study of Macaca fascicularis with 86 samples.

Results

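The 10 genes described here encode proteins that organise the space between cells and the sugar coat of the cell surface: the small leucine-rich proteoglycans LUM, DCN and BGN, the hyaluronan synthase HAS2 with the hyaluronan-binding proteoglycan VCAN and its link protein HAPLN1, the glypicans GPC3 and GPC4, and the matricellular proteins POSTN and TGFBI. All 10 names were rows of the deposited table of 17023 genes, and all 10 reached 1 TPM (the reads of a gene per length, as a share of its region) in at least 10 regions. They were chosen by name with earlier results of these data in view, in which LUM and DCN stood out between the stages and LUM along the sections. Those values are therefore given as descriptions with no test, and no meaning is read from how many of the 10 genes passed a test in any comparison.

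The study asked how gene expression is laid out in the gastrulating embryo of the crab-eating macaque, a monkey. Cells were cut by laser from frozen sections in groups of 5 to 50, and their polyadenylated RNA was sequenced by Geo-seq, a method for very small tissue samples. The E20 group was 1 embryo with 36 regions from 7 sections, and the E18 group was 2 embryos, embryo 1 with 15 regions from 4 sections and embryo 2 with 35 regions from 6 sections. No treatment or genotype is named for any embryo, and the labels number the sections and sectors without stating a tissue or an anatomical direction. In such small bulk samples, fewer cells of a type and less RNA per cell cannot be told apart.

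Small leucine-rich proteoglycans bind fibrillar collagen and space its fibres. Hyaluronan is a long sugar spun out at the plasma membrane, and versican held to it by link protein makes a swollen matrix through which cells can move. In the mouse, both Has2 and Vcan are needed for the early heart. Glypicans carry heparan sulfate on a lipid anchor and alter how cells receive signals such as WNT, hedgehog and FGF, while periostin and TGFBI bind collagen and integrins and are typical of mesenchyme.

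The number of genes at 1 TPM or more was 6194 to 10950 per region in the E20 embryo, 7815 to 11516 in E18 embryo 1 and 11091 to 13958 in E18 embryo 2. Summed TPM per region was 629744 to 777987 in E20, 495547 to 709962 in E18 embryo 1 and 553429 to 747979 in E18 embryo 2. Outside the alternatives, TPM were compared between regions without bringing these unequal sums to a common total. Mitochondrially encoded genes held 9.82% to 28.8% of the summed TPM in E20 regions, 8.91% to 40.6% in E18 embryo 1 and 13.3% to 48.8% in E18 embryo 2. ACTB and GAPDH were listed at 0 in 0 regions, and no 2 regions had identical values. Markers of decidual stroma and immune cells, which surround an implanted embryo, summed to 10.3 to 245 TPM in E20 regions, 13.4 to 314 in E18 embryo 1 and 11.8 to 59.1 in E18 embryo 2, with medians of 70.7 in the E20 embryo, 25.9 in E18 embryo 1 and 31.0 in E18 embryo 2. Of those 12 markers, 11 reached 1 TPM in the E20 embryo, all but PRL, and their part in the results was not tested. All 19 markers of extraembryonic mesenchyme and all 13 measured markers of yolk sac endoderm reached 1 TPM in each embryo. GATA1 and HBZ, of the 12 markers of blood and endothelium, did not reach it in E18 embryo 1.

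**Figure D1:**
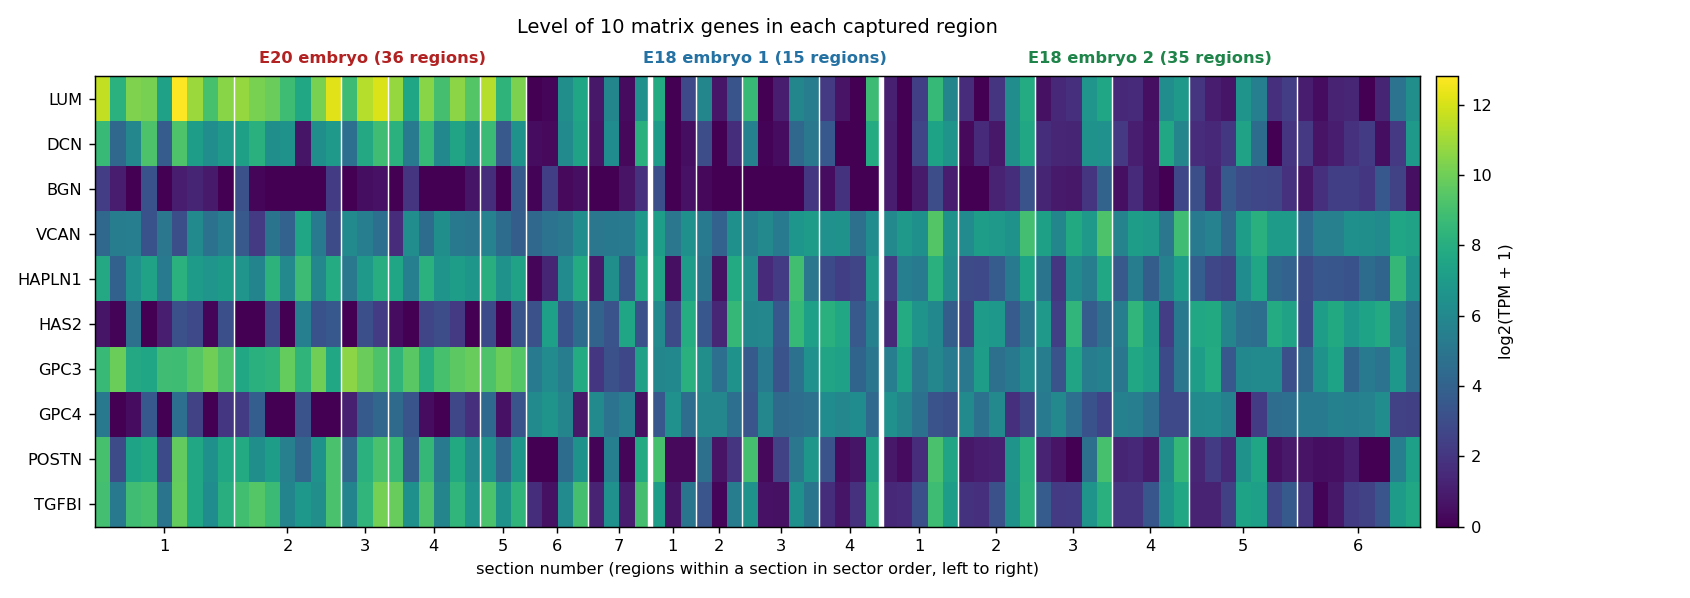
Level of the 10 genes as log2(TPM + 1), in colour, in each of the 86 regions (columns), with E20 left of the E18 embryos and thin lines between sections. LUM, DCN, HAPLN1, POSTN and TGFBI are bright together in the same columns, HAS2 and GPC4 are dark in most columns of E20 sections 1 to 5, and BGN is dark nearly everywhere.

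LUM (lumican) had the highest mean of the 10 genes in the E20 embryo. It ranged over 0 to 7124 TPM in the 36 E20 regions (median 809.9), 0 to 439 in the 15 regions of E18 embryo 1 (median 6.06) and 0 to 376 in the 35 regions of E18 embryo 2 (median 2.34). The ranges overlapped, but 23 E20 regions lay above the highest E18 region, and all 28 regions of E20 sections 1 to 5 held at least 159.7 TPM. On the log2(TPM + 1) scale the E20 mean exceeded the mean of the 2 E18 embryos by 5.26 ± 0.43 (SE). The highest regions were sector 6 of section 1 in the E20 embryo with 7124 TPM, sector 4 of section 4 in E18 embryo 1 with 439 TPM and sector 4 of section 1 in E18 embryo 2 with 376 TPM. The 3 highest regions held 35.6% of the LUM summed over the 36 regions of the E20 embryo, against 85.6% over the 15 of E18 embryo 1 and 52.9% over the 35 of E18 embryo 2.

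DCN (decorin) had a lower mean than LUM in all 3 embryos. It ranged over 0.19 to 628 TPM in E20 regions (median 86.3), 0 to 236 in E18 embryo 1 (median 2.24) and 0 to 199 in E18 embryo 2 (median 2.81), and 9 E20 regions exceeded every E18 region. The E20 mean was higher by 3.16 ± 0.50 on the log2 scale. Nearly every region with much LUM also held DCN: 50 of 86 regions had LUM at 10 TPM or more, 48 had DCN at that level and 47 had both.

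Where both genes reached 10 TPM, the balance between them differed. LUM exceeded DCN by a median ratio of 8.64 in 31 E20 regions, 1.86 in 5 regions of E18 embryo 1 and 1.05 in 11 regions of E18 embryo 2. The E20 value was not uniform: section medians were 7.07 to 13.3 in sections 1 to 5, but 1.12 in the 2 qualifying regions of section 6 and 0.54 in the 2 of section 7. The medians of sections 4, 6 and 7 lay within the range of single E18 regions, which was 0.39 to 8.13. With a minimum of 50 TPM for both genes the medians were 8.20 in 26 E20 regions, 1.79 in 2 of E18 embryo 1 and 1.00 in 10 of E18 embryo 2.

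BGN (biglycan), the third proteoglycan of this class, was scarce. It reached 11.4 TPM at most in the E20 embryo, 7.71 in E18 embryo 1 and 15.9 in E18 embryo 2, with medians of 0.30 TPM in the E20 embryo, 0 in E18 embryo 1 and 2.15 in E18 embryo 2. It was listed at 0 in 15 of 36 E20 regions, 9 of 15 in E18 embryo 1 and 4 of 35 in E18 embryo 2. The stage difference of −0.30 ± 0.82 did not pass the test (limma, adjusted p = 0.871). Its low level leaves its pattern poorly resolved, and its direction between stages changed with quantile normalization, to 0.38, and without E18 embryo 2, to 0.29.

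HAS2, the main hyaluronan synthase of the mouse embryo, was lower at E20. It ranged over 0 to 189.5 TPM in E20 regions (median 6.15), 1.59 to 374 in E18 embryo 1 (median 58.9) and 1.69 to 341 in E18 embryo 2 (median 61.6). All 50 E18 regions held at least 1 TPM, 12 of the 36 E20 regions held less and 13 E18 regions exceeded every E20 region. The difference in log2 means was −3.33 ± 0.45 (limma, adjusted p = 3.37e-11). The 2 highest E20 regions were sector 3 of section 7 with 189.5 TPM and sector 2 of section 6 with 150.8 TPM, and the next, sector 5 of section 2, held 44.6 TPM.

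VCAN, which hyaluronan anchors in the matrix, was present at 2.07 TPM or more in every region of the study. It ranged over 2.07 to 189 TPM in E20 regions (median 33.1), 15.3 to 138 in E18 embryo 1 (median 74.04) and 17.4 to 672 in E18 embryo 2 (median 114). The ranges overlapped, with 7 E18 regions above the highest E20 region. VCAN was lower at E20 by −1.46 ± 0.42 (limma, adjusted p = 0.00893). Its 3 highest regions, with 672, 598 and 494 TPM, were sector 4 of section 1, sector 5 of section 3 and sector 5 of section 2 of E18 embryo 2.

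HAPLN1, the link protein that clamps versican to hyaluronan, was higher at E20, where HAS2 and VCAN were lower. It ranged over 0.13 to 437 TPM in E20 regions (median 105), 0.46 to 479 in E18 embryo 1 (median 28.9) and 3.05 to 366 in E18 embryo 2 (median 22.0). The groups overlapped over nearly the whole range, and only 1 E18 region exceeded the highest E20 region. The log2 mean differed by 1.64 ± 0.43 (limma, adjusted p = 0.00284), and with the mitochondrially encoded genes left out and the rest rescaled the difference was 1.43 and the call was lost (limma, adjusted p = 0.101).

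GPC3, a glypican whose loss causes an overgrowth syndrome in humans, was among the most abundant of the 10 in the E20 embryo. It ranged over 3.03 to 1519 TPM in E20 regions (median 437), 8.58 to 279 in E18 embryo 1 (median 58.2) and 6.40 to 234 in E18 embryo 2 (median 41.5), and 22 E20 regions exceeded every E18 region. GPC3 was higher at E20 by 2.50 ± 0.43 (limma, adjusted p = 8.2e-07). GPC4, a related glypican, was lower at E20 by −2.17 ± 0.48 (limma, adjusted p = 0.00026). It ranged over 0 to 99.0 TPM in E20 regions (median 5.20), 9.32 to 87.9 in E18 embryo 1 (median 26.2) and 0 to 88.5 in E18 embryo 2 (median 27.5). The ranges of GPC4 overlapped throughout, and the lower E20 mean came with 13 of 36 E20 regions under 1 TPM against 0 of 15 and 1 of 35 E18 regions.

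POSTN (periostin) ranged over 0 to 841 TPM in E20 regions (median 89.9), 0.21 to 545 in E18 embryo 1 (median 4.51) and 0 to 563 in E18 embryo 2 (median 1.48). The highest region of each E18 embryo lay below the highest E20 region and near the next 2, which held 555 and 549 TPM. The stages differed mainly in how many regions held it. POSTN reached 10 TPM in 30 of 36 E20 regions, 6 of 15 in E18 embryo 1 and 12 of 35 in E18 embryo 2. The log2 mean was higher at E20 by 2.62 ± 0.48 (limma, adjusted p = 3.47e-06). The ranges overlapped down to 0 TPM, and 1 E20 region exceeded every E18 region.

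TGFBI, a collagen-binding protein with the same fasciclin domains, ranged over 0.47 to 1101 TPM in E20 regions (median 238), 0.14 to 283 in E18 embryo 1 (median 9.53) and 0.085 to 455 in E18 embryo 2 (median 7.82). Its E20 mean was higher by 3.27 ± 0.44 (limma, adjusted p = 2.97e-11), and 13 E20 regions exceeded every E18 region.

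**Figure D2:**
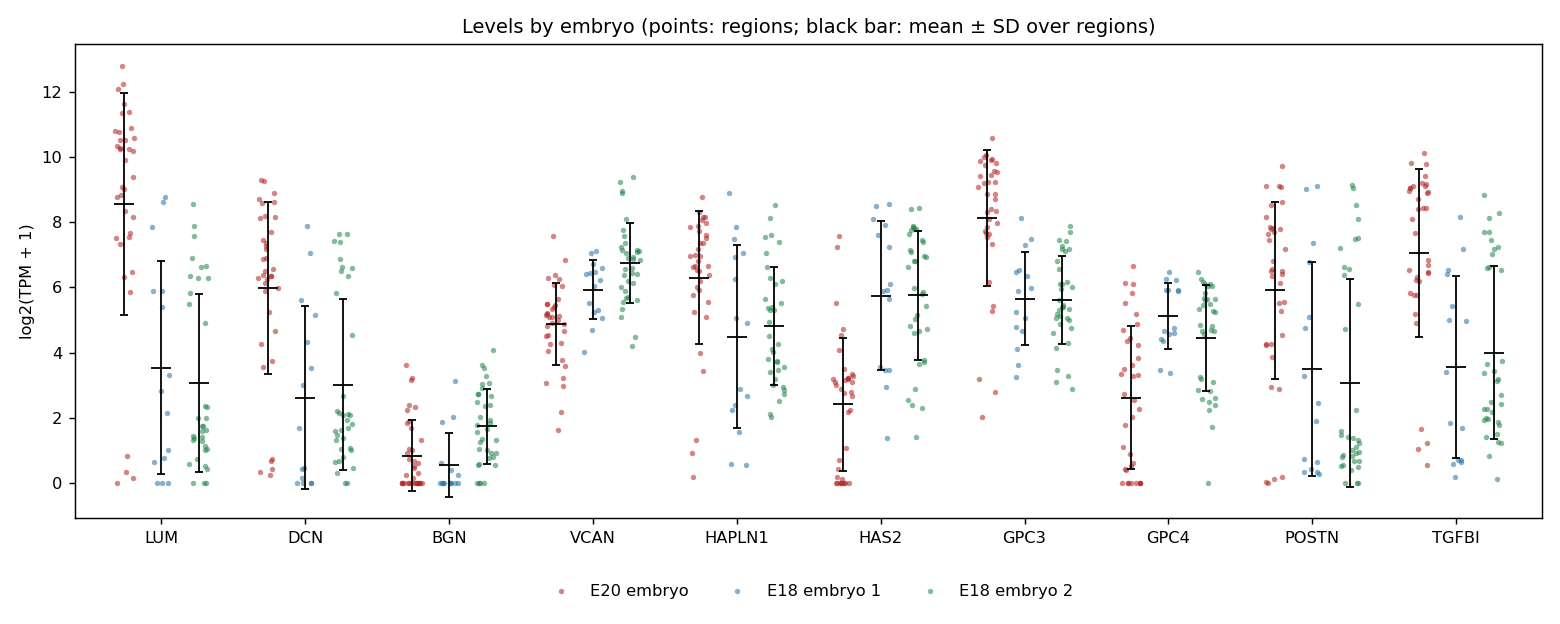
Values of each gene as log2(TPM + 1) in the E20 embryo (red), E18 embryo 1 (blue) and E18 embryo 2 (green), 1 point per region, with black bars for the mean ± SD over regions. The E18 points of LUM, DCN, POSTN and TGFBI fall into a low and a high set, while E20 points sit mostly with or above the high set. HAS2 and GPC4 sit lower in E20 than in both E18 embryos.

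Besides LUM and DCN, whose stage values chose them, 4 of the other 8 genes were called higher at E20, where 2.64% of the 15216 genes tested were, and 3 were called lower, where 8.75% were. POSTN, TGFBI and HAPLN1, called higher, varied with LUM from region to region, as given below. The count is thus not independent of the choice of LUM. The median difference was 0.67 over those 8 genes and −0.44 over all genes tested. The scaling moved that median over all genes, to −0.0088 with quantile normalization, where 4 of the 8 were called higher and 3 lower, and to −0.72 without the mitochondrially encoded genes, where 3 were called higher and 3 lower. Of all genes tested, 402 were called higher and 1332 lower, against 796 and 679 with quantile normalization and 140 and 776 without the mitochondrially encoded genes. The test has 1 E20 embryo, so it holds nothing on variation among E20 embryos. Its errors came mainly from a variance trend shared over all genes, with little weight on a gene's own difference between the 2 E18 embryos. HAS2 had E18 means of 5.75 and 5.76 and an SE of 0.45, and VCAN had 5.93 and 6.74 and an SE of 0.42. The stage p-values thus say little on how far a single gene varied between embryos. With the median over regions in place of the mean, 0 of the 10 genes, and 0 of the whole table, were called in either direction. The differences then were 4.62 for both POSTN and TGFBI, 3.12 for GPC3, 2.02 for HAPLN1, −1.45 for VCAN, −2.17 for GPC4 and −3.10 for HAS2 (limma, adjusted p = 0.374 to 0.382).

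The E20 differences were not shared by all 7 E20 sections. Sections 1 to 5 and sections 6 and 7 are set side by side here because their values had been seen to differ, and no test is given. Relative to the E18 mean on the log2 scale, LUM was higher by 6.33 to 7.44 in each of sections 1 to 5, by 0.19 in section 6 and by 0.081 in section 7. TGFBI was higher by 3.87 to 4.32 in sections 1 to 5, by 0.58 in section 6 and by 0.66 in section 7, and DCN by 3.22 to 4.27, 0.75 and 1.01. The log2 means of LUM and TGFBI in sections 6 and 7 thus sat near the E18 means. For TGFBI those means joined regions far apart. Sector 4 held 523 TPM in section 6 and in section 7, above the highest E18 region at 455 TPM, and the lowest of these regions held 0.47 TPM.

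POSTN and HAPLN1 showed the same division. POSTN differed from the E18 mean by 2.60 to 3.90 across sections 1 to 5, −0.51 in section 6 and 0.13 in section 7, and HAPLN1 by 1.97 to 2.66, −0.76 and −0.070. GPC3 was higher by 2.92 to 4.26 in sections 1 to 5 and by 0.55 in section 6, and was lower by −1.80 in section 7. HAS2 differed by −4.37 to −3.61 across sections 1 to 5, −1.21 in section 6 and −1.22 in section 7, and GPC4 by −3.45 to −1.80, 0.076 and −0.53. VCAN lay below the E18 mean in all 7 sections, by −1.96 to −0.92 across sections 1 to 5, −1.19 in section 6 and −0.76 in section 7. BGN differed by −0.79 to 0.63 over the 7 sections.

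Markers of other cell types moved with that division. The 13 measured yolk sac endoderm markers (apolipoproteins, AFP, fibrinogen chains and others) summed to 88.8 to 149521 TPM in the 28 regions of E20 sections 1 to 5 and to 6.48 to 158 TPM in the 8 regions of sections 6 and 7. The 11 epiblast markers summed to 34.03 to 361 TPM across sections 1 to 5 and 163.5 to 1518 across sections 6 and 7, and the 11 primitive streak markers to 0 to 49.99 and 18.96 to 2836. The mesenchyme markers overlapped more, with 496 to 4965 TPM across sections 1 to 5 and 92.7 to 4417 across sections 6 and 7. The part of tissue makeup in the stage values was not tested.

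Along the sections of an embryo, scaled from 0 at the lowest to 1 at the highest number, HAS2 rose by 1.86 ± 0.58 log2 units (limma, adjusted p = 0.0263) and GPC3 fell by 1.76 ± 0.47 (limma, adjusted p = 0.0096). LUM, given with no test, had a slope of −3.31 ± 0.86. Among the other 9 genes, 1 was called higher and 1 lower along the sections, where 8.81% and 1.89% of all genes were. The HAS2 slope was positive in all 3 embryos, at 2.50 ± 0.92 in the E20 embryo, 1.11 ± 1.37 in E18 embryo 1 and 1.56 ± 0.92 in E18 embryo 2, and its call was lost without E18 embryo 2 (slope 2.07, limma, adjusted p = 0.061). The slopes of TGFBI, POSTN, DCN and HAPLN1, between −2.13 and −1.36, did not pass (limma, adjusted p = 0.0861 to 0.203), nor did those of GPC4 (1.25), BGN (0.27) and VCAN (−0.14). The GPC3 slope was −3.71 ± 0.70 in the E20 embryo, −0.92 ± 1.05 in E18 embryo 1 and −0.19 ± 0.70 in E18 embryo 2.

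The section slopes of LUM and GPC3 were steeper in the E20 embryo. LUM had slopes of −6.45 ± 1.28 in the E20 embryo, −0.34 ± 1.91 in E18 embryo 1 and −1.50 ± 1.28 in E18 embryo 2, and the E20 slope minus the mean E18 slope was −5.53 ± 1.72, given with no test because the section values of LUM were among those that chose it. For GPC3 that difference was −3.15 ± 0.94 (limma, adjusted p = 0.0147). GPC3 was the 1 of the 9 genes besides LUM that passed, where 14.7% of all genes did in either direction. GPC4 had a slope of 2.73 ± 0.81 in the E20 embryo against 0.49 ± 1.21 and 0.12 ± 0.81 in E18 embryos 1 and 2, a difference that did not pass (limma, adjusted p = 0.122). Regions of a section were treated as independent, and with section means as the unit, with the count of detected genes as covariate, with a separate block for E20 sections 6 and 7 or without the E20 embryo, 0 of the 10 genes kept a section call. Over all genes the section calls were 25 higher and 2 lower with section means, 392 and 110 with the covariate, 6 and 0 with the separate block and 7 and 2 without the E20 embryo, against 1341 and 287.

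Along the sectors within a section, scaled in the same way, HAPLN1 rose by 2.73 ± 0.54 log2 units (limma, adjusted p = 0.00296), TGFBI by 3.27 ± 0.68 (0.00395), LUM by 2.86 ± 0.72 (0.017), POSTN by 2.94 ± 0.82 (0.0297) and VCAN by 1.19 ± 0.33 (0.031). GPC4 fell by 2.06 ± 0.47 (limma, adjusted p = 0.00722). DCN had a slope of 2.29 ± 0.75 that did not pass (limma, adjusted p = 0.0717), and those of BGN, HAS2 and GPC3 were 0.42 ± 0.32, 0.75 ± 0.58 and 0.28 ± 0.38. Thus 5 of the 10 genes were called higher towards the highest sector, where 2.48% of all genes were, and 1 was called lower, where 0.762% were.

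For the 6 genes called along the sectors the slope was steepest in E18 embryo 2, and without that embryo 0 of the 10 genes, and 0 genes of the whole table, were called. POSTN had sector slopes of 2.25 ± 1.17 in the E20 embryo, −1.66 ± 1.68 in E18 embryo 1 and 6.13 ± 1.22 in E18 embryo 2, and LUM had 1.87 ± 1.06 in the E20 embryo, −0.33 ± 1.52 in E18 embryo 1 and 5.62 ± 1.10 in E18 embryo 2. The slopes of VCAN, HAPLN1 and TGFBI were positive in all 3 embryos, those of HAPLN1 with 2.25 ± 0.83 in the E20 embryo, 2.09 ± 1.20 in E18 embryo 1 and 3.61 ± 0.87 in E18 embryo 2. No difference of sector slopes between stages was called for any of the 10 genes or for any gene of the table (0%, with 942 of 15216 genes and 0 of the 10 at an unadjusted limma p under 0.05).

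Section 1 of E18 embryo 2, chosen as an example after its values were seen, shows the sector pattern region by region. Over sectors 1 to 5, LUM was 1.21, 0, 4.10, 376 and 55.7 TPM, TGFBI was 1.67, 1.85, 7.82, 455 and 143 TPM, and GPC4 was 88.5, 56.3, 27.4, 8.63 and 7.50 TPM. LUM and TGFBI were high in the same 2 sectors, where GPC4 was lowest. HAS2 was 1.69, 230, 97.02, 61.6 and 12.7 TPM over the same sectors, highest in sector 2, where LUM was listed at 0.

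**Figure D3:**
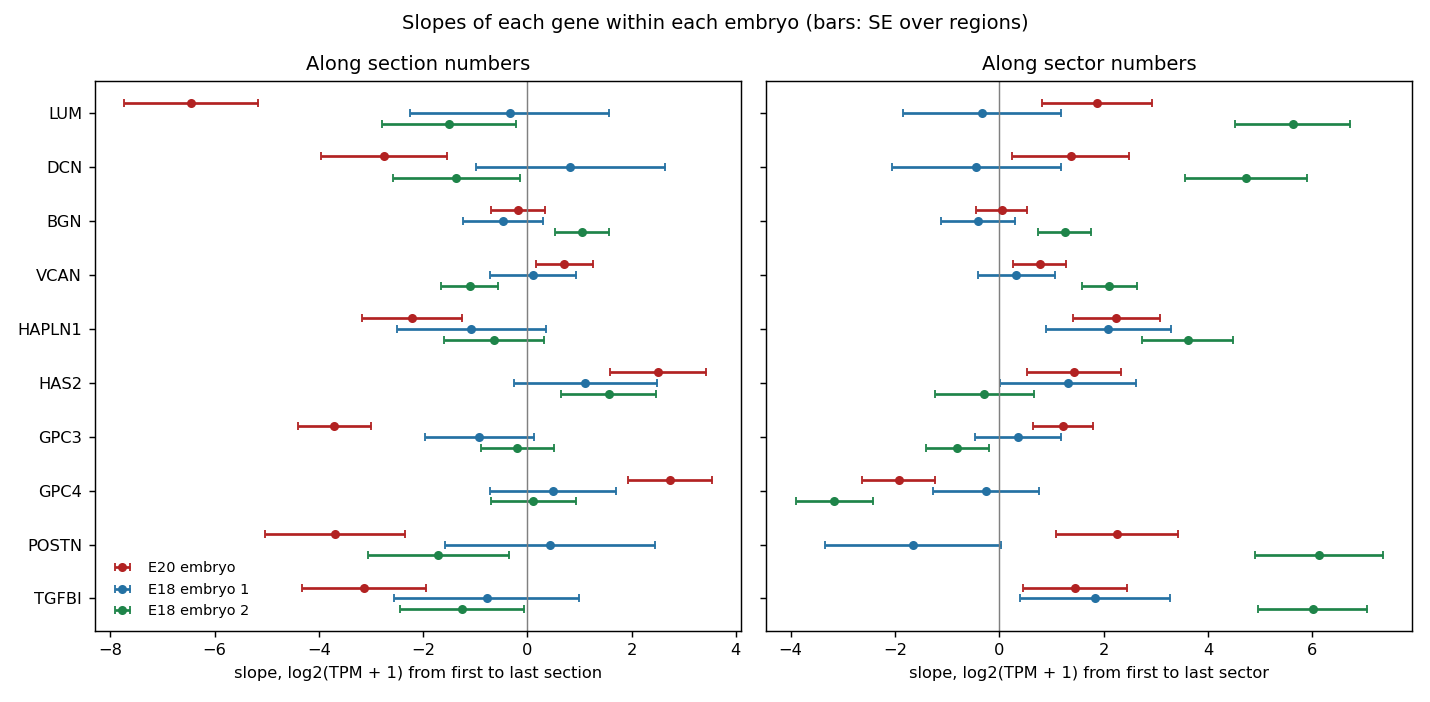
Slopes of log2(TPM + 1) along section numbers (left) and sector numbers (right), each scaled from 0 to 1, in the E20 embryo (red), E18 embryo 1 (blue) and E18 embryo 2 (green), with bars for the SE over regions. The E20 section slopes of LUM and GPC3 stand apart at −6.45 and −3.71. Sector slopes of LUM, POSTN and TGFBI in E18 embryo 2 lie between 5.62 and 6.13.

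The 10 genes fell into sets that varied together from region to region. To keep differences between sections out of this description, correlations were taken over deviations from section means of log2(TPM + 1), within an embryo (n = 36 regions in the E20 embryo, 15 in E18 embryo 1 and 35 in E18 embryo 2). Regions of a section share the tissue slice, and TPM values of a region share 1 total, so these are descriptions. LUM and POSTN had r = 0.95 in the E20 embryo, 0.94 in E18 embryo 1 and 0.96 in E18 embryo 2, and LUM had r of 0.92 to 0.95 with DCN and 0.92 to 0.94 with TGFBI over the 3 embryos. HAPLN1 had r of 0.83 with LUM in the E20 embryo, 0.78 in E18 embryo 1 and 0.80 in E18 embryo 2. These 5 genes followed the mean log2 level of 19 extraembryonic mesenchyme markers (collagens I, III, V and VI, VIM, PDGFRA, HAND1, FOXF1 and others), with r of 0.83 to 0.98 over the 5 genes and 3 embryos. Among sections with at least 4 regions that r was always positive, and lowest for each gene in E20 section 2 (7 regions). There it was 0.020 for HAPLN1, 0.37 for DCN, 0.61 for POSTN, 0.65 for LUM and 0.85 for TGFBI. Other lists moved with the 5 genes: for the 11 amnion and surface ectoderm markers (ISL1, TFAP2A, GABRP and others) r was 0.61 to 0.77 in the E20 embryo, 0.37 to 0.85 in E18 embryo 1 and 0.82 to 0.95 in E18 embryo 2. For the 12 markers of blood and endothelium it was 0.35 to 0.44 in the E20 embryo, 0.58 to 0.72 in E18 embryo 1 and 0.73 to 0.88 in E18 embryo 2. For the 8 measured trophoblast markers it was 0.36 to 0.55 in the E20 embryo, 0.40 to 0.74 in E18 embryo 1 and 0.73 to 0.81 in E18 embryo 2. KRT7, GATA3 and TFAP2C are in both the trophoblast and the amnion lists, so the r values of these lists are not independent. With the epiblast markers r was negative, at −0.39 to −0.29 in the E20 embryo, −0.86 to −0.78 in E18 embryo 1 and −0.94 to −0.84 in E18 embryo 2. Which cell type in a region held the RNA was not tested.

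HAS2 had r of −0.23 to 0.14 with these 5 genes in the E20 embryo, 0.15 to 0.68 in E18 embryo 1, where HAPLN1 was the highest, and −0.45 to 0.025 in E18 embryo 2. It followed the primitive streak and nascent mesoderm markers (TBXT, MIXL1, EOMES, MESP1 and others), with r of 0.48 in the E20 embryo, 0.81 in E18 embryo 1 and 0.79 in E18 embryo 2. In the 28 regions of E20 sections 1 to 5 those markers summed to only 0 to 49.99 TPM. HAS2 had a median of 3.59 TPM there and was listed at 0 in 8 regions. The E20 value thus says little on those sections. HAS2 reached 100 TPM in 24 regions, 2 of the E20 embryo, 6 of E18 embryo 1 and 16 of E18 embryo 2. Only 2 of those 24 regions, both in E18 embryo 1, held LUM at 10 TPM or more. HAPLN1 was at that level in 16 of the 24, and in 66 of all 86 regions. It reached 10 TPM in all 50 regions with LUM at that level and in 16 E18 regions without it.

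GPC4 followed the epiblast markers (SOX2, NANOG, TDGF1 and others), with r of 0.60 in the E20 embryo, 0.86 in E18 embryo 1 and 0.87 in E18 embryo 2. Against LUM it had r of −0.09 in the E20 embryo, −0.79 in E18 embryo 1 and −0.87 in E18 embryo 2. In E18 embryo 2 each of the 35 regions held exactly 1 of the pair at 10 TPM or more, GPC4 in 23 and LUM in 12. In the E20 embryo 10 of 36 regions held both, and in E18 embryo 1 it was 5 of 15. By section, the r of GPC4 with the mesenchyme markers was 0.79, 0.43 and 0.11 in E20 sections 1, 2 and 4. It was −0.87 and −0.85 in E20 sections 6 and 7, over 4 regions each. Across E20 sections 1 to 5 the median of GPC4 was 3.44 TPM. That r was negative in 2 of 2 sections of E18 embryo 1 and 6 of 6 of E18 embryo 2. The difference in sign was not tested.

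GPC3 had r with the yolk sac endoderm markers of 0.42 in the E20 embryo, 0.73 in E18 embryo 1 and 0.51 in E18 embryo 2. In E18 embryo 1 its r with the primitive streak markers was higher, at 0.87, and in the E20 embryo those with the trophoblast and amnion markers, lists with genes in common, were higher, at 0.71 and 0.65. By section, r with the yolk sac endoderm markers was positive in E20 sections 1, 2 and 4, at 0.44, 0.78 and 0.94, and negative in E20 sections 6 and 7, at −0.22 and −0.93 over 4 regions each. It was positive in 2 of 2 sections of E18 embryo 1 and 6 of 6 of E18 embryo 2. HAS2 and GPC3 had r of −0.21 in the E20 embryo, 0.73 in E18 embryo 1 and 0.56 in E18 embryo 2. The sign was thus negative in the E20 embryo and positive in both E18 embryos, a difference that was not tested. The 2 glypicans were at 10 TPM or more together in 11 of 36 E20 regions, 13 of 15 regions of E18 embryo 1 and 21 of 35 regions of E18 embryo 2.

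The relation of VCAN to the mesenchyme markers was not of 1 sign. Its r with the mesenchyme markers was −0.15 in the E20 embryo, 0.54 in E18 embryo 1 and 0.72 in E18 embryo 2. Taken section by section, where a section had at least 4 regions, that r was positive in 2 of 2 sections of E18 embryo 1 and 6 of 6 sections of E18 embryo 2. In the E20 embryo it was negative in 3 of 5 sections, with r of −0.52, −0.64 and −0.81 in sections 1, 2 and 4, and positive in sections 6 and 7, with 0.95 and 0.75. VCAN and HAPLN1 had r of 0.13 in the E20 embryo, 0.68 in E18 embryo 1 and 0.79 in E18 embryo 2. The difference of these r values between stages was not tested.

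**Figure D4:**
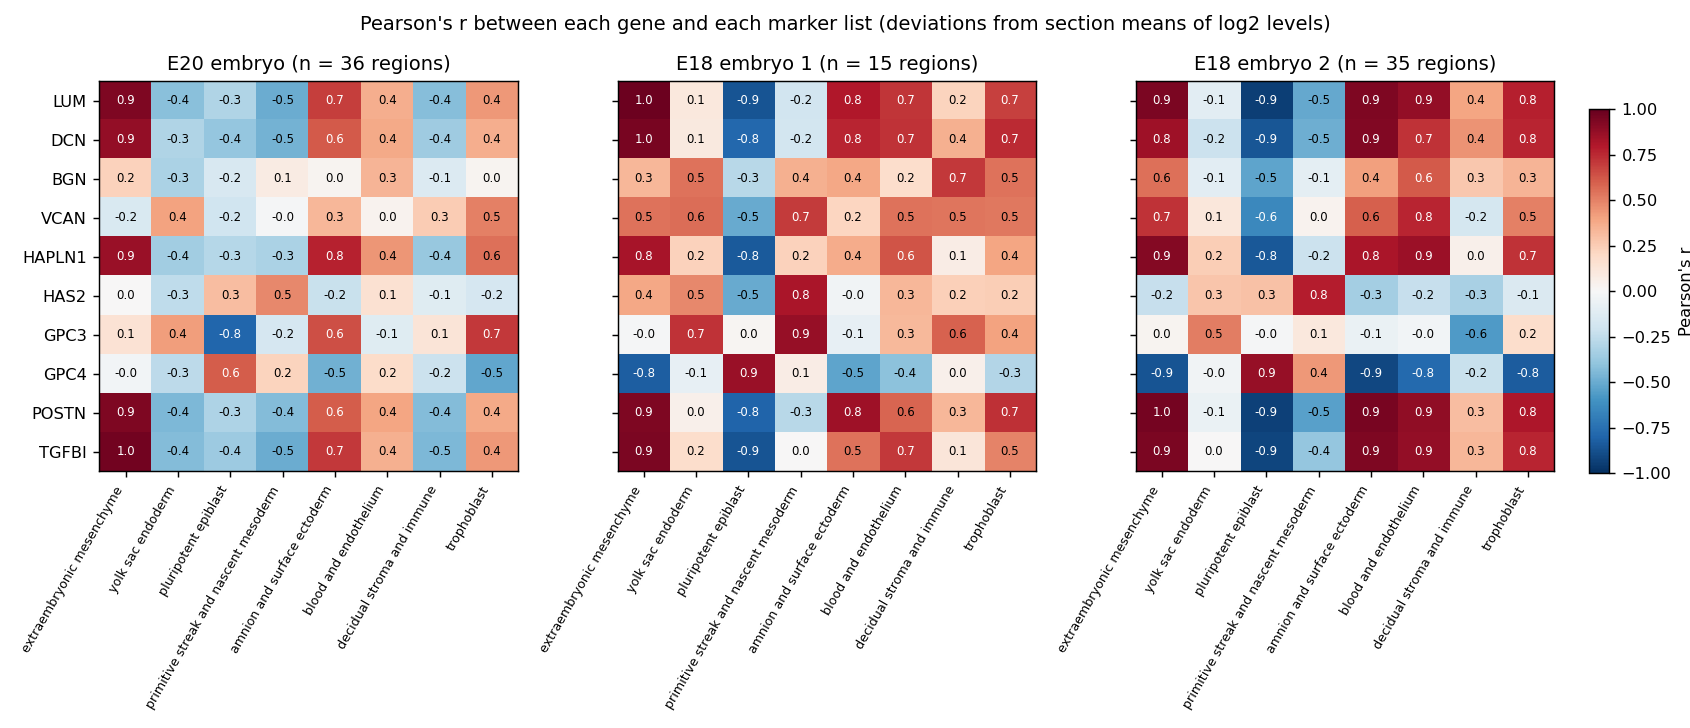
Pearson's r, over deviations from section means of log2 levels, between each gene (rows) and the mean level of each marker list (columns), in the E20 embryo (left), E18 embryo 1 (middle) and E18 embryo 2 (right). LUM, DCN, HAPLN1, POSTN and TGFBI are dark red under mesenchyme in all 3 embryos, GPC4 is red under epiblast, HAS2 is red under primitive streak, and VCAN under mesenchyme is pale blue at −0.15 in E20 and red in both E18 embryos.

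**Figure D5:**
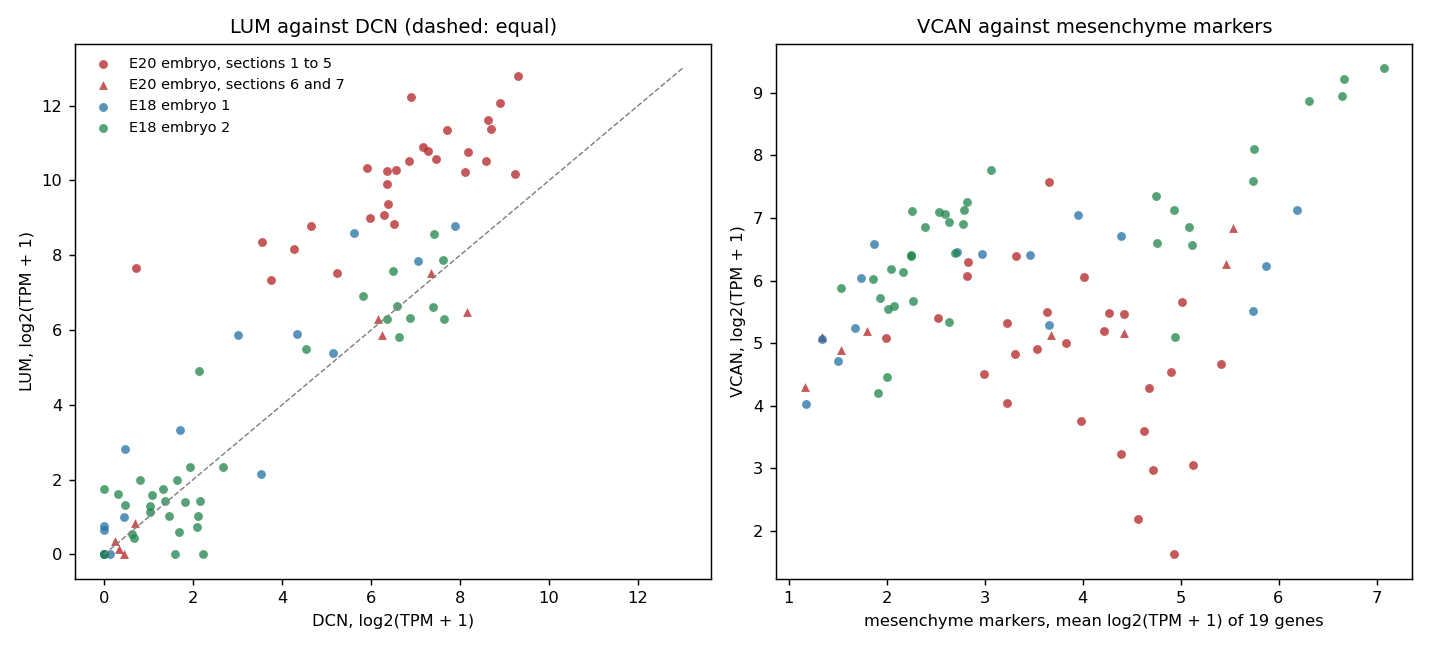
Left, LUM against DCN in each region, both as log2(TPM + 1), with a dashed line where they are equal; circles of E20 sections 1 to 5 (red) lie above the line, and triangles of E20 sections 6 and 7 lie among the E18 points. Right, VCAN as log2(TPM + 1) against the mean log2(TPM + 1) of 19 mesenchyme markers, where VCAN is highest at the right in E18 embryo 2 (green) and several red E20 circles with 4 to 5 on the marker axis are lowest.

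The balance of POSTN and LUM also differed between the embryos. Where both reached 10 TPM, POSTN over LUM had a median of 0.12 in 30 E20 regions, 0.94 in 6 regions of E18 embryo 1 and 1.51 in 12 regions of E18 embryo 2. By section the E20 medians ran over 0.056 to 0.14 across sections 1 to 5 and were 0.39 for section 6 and 1.67 for section 7. The medians of sections 6 and 7 lay within the range of single E18 regions, which was 0.26 to 4.06.

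The order of the mean levels within an embryo, a comparison on the length-scaled TPM, differed too. In the E20 embryo LUM led with 1271 ± 1557 TPM (SD, n = 36 regions), then GPC3 with 489 ± 373 and TGFBI with 311 ± 296, and LUM exceeded GPC3 in 20 of 36 regions. In E18 embryo 1 HAS2 led with 124 ± 133 TPM (n = 15), and in E18 embryo 2 VCAN led with 154 ± 160 (n = 35), followed by HAS2 with 103 ± 97.9. VCAN exceeded HAS2 in 20 of 35 regions of E18 embryo 2, and most neighbours in these orders lay within each other's spread. BGN was last in every embryo, at 1.52 ± 2.68 TPM in the E20 embryo, 0.96 ± 2.11 in E18 embryo 1 and 3.53 ± 3.76 in E18 embryo 2.

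Of the spread of a gene over all 86 regions, GPC3 had 33.4% of its sum of squares between sections of an embryo and LUM had 20.5%, against 14.5% for the median gene tested. POSTN and HAPLN1 had most of theirs between sectors of a section, at 70.3% and 74.4%, against 65.05% for the median gene. LUM, HAS2, GPC3 and VCAN had 42.8%, 39.8%, 35.2% and 34.5% between embryos, against 19.01% for the median gene.

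The genes most like each member were found as the 3 with the highest mean, over 3 embryos, of Pearson's r of log2(TPM + 1) within an embryo. Unlike the r values above, these were not taken over deviations from section means, so differences between sections enter them. In the E20 embryo LUM and GPC3 had r of 0.72 in this way, against 0.17 over deviations from section means. The collagen gene COL3A1 was the nearest to LUM (mean r = 0.96), DCN (0.94), POSTN (0.96) and TGFBI (0.94). After it came NID2, a basement membrane protein, and POSTN for LUM, POSTN and COL1A2 for DCN, COL1A2 and LUM for POSTN, and PMP22 and TEK, an endothelial receptor, for TGFBI. HAPLN1 was nearest to HAND1 (0.89), a transcription factor of heart and extraembryonic mesoderm, then FOSL2 and TGFBI.

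The other members had looser neighbours. The 3 nearest to HAS2 included NECTIN2 and FSCN1, an actin-bundling protein. GPC4 was nearest to TDGF1 (0.79), a NODAL co-receptor and one of the epiblast markers, then CA11 and REC8. GPC3 was nearest to CD59 (0.77), then ATP6V0E1 and SUCLG1, and VCAN to the transcription factor TBX3 (0.67), then CLCN5 and ITPRID2. The 3 nearest to BGN included PODN and ISLR. By Spearman's rho 14 of the 30 neighbours of the 10 genes stayed among the 3 nearest.

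Other genes of matrix assembly and turnover were taken from 8 lists of 120 genes, of which 114 were in the table and 111 were tested. Between stages 8 of the 111 were called higher at E20 and 10 lower, where 2.64% and 8.75% of all genes were. The largest rise was that of CCN4, a matricellular WNT target, by 5.13 ± 0.70 log2 units (limma, adjusted p = 1.09e-10), at 0 to 1065 TPM in E20 regions (median 107) against 0 to 5.93 in E18 embryo 1 (median 0) and 0 to 5.45 in E18 embryo 2 (median 0.58). Other matricellular genes were SPARC, which rose by 1.42 ± 0.47, and FBLN2, SPP1 and SPOCK3, which fell by 2.67, 2.29 and 2.17. None of the 10 other small leucine-rich proteoglycans was called (0 of 10, median difference −0.73).

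Among 14 tested genes of hyaluronan synthesis, turnover and reception, 4 rose at E20 and 1 fell, beside the same 2.64% and 8.75% of all genes. The receptors STAB2, LYVE1 and CD44 rose by 3.01 ± 0.79, 2.76 ± 0.80 and 2.44 ± 0.65 (limma, adjusted p = 0.00292, 0.00859 and 0.00341), and UGDH, which makes a hyaluronan precursor, rose by 1.35 ± 0.42. STAB2 and LYVE1 are also known from endothelium, whose markers summed to 24.9 to 4449 TPM with those of blood in E20 regions, 30.4 to 571 in E18 embryo 1 and 27.07 to 710 in E18 embryo 2, and their part in these values was not tested. The hyaluronidase HYAL2 fell by 1.78 ± 0.44. CD44 reached 350 TPM in the E20 embryo and at most 12.4 and 17.2 TPM in E18 embryos 1 and 2.

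Of 9 other glypicans and syndecans tested, SDC2 rose by 2.50 ± 0.44 and GPC1 fell by 2.27 ± 0.53 at E20. Of 9 other large proteoglycans and link proteins, the basement membrane proteoglycans AGRN and COL18A1 fell, by 1.88 and 1.69, and the others did not pass. Of the enzymes that build the glycosaminoglycan chains, B3GAT3 and CHPF fell by 3.22 and 2.14 in the list of 19 for the linker and chondroitin sulfate, and EXTL3 by 1.90 in the list of 17 for heparan sulfate. Among 12 proteases and inhibitors, the versican-cleaving protease ADAMTS9 rose by 1.95 ± 0.48.

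Along the sections 7 of the 111 genes were called higher and 4 lower, where 8.81% and 1.89% of all genes were, and along the sectors 5 and 1, where 2.48% and 0.762% were. CCN4, CD44, STAB2 and SDC2 fell along the sections by 2.47, 1.83, 1.55 and 1.25, calls that were lost with the separate block for E20 sections 6 and 7. HAS3, a second hyaluronan synthase, rose by 1.74 ± 0.41 (limma, adjusted p = 0.0031), and B3GAT3, SPOCK3, HYAL2, GPC1, THBS3 and CHPF rose by 0.92 to 1.61. With that block only 6 genes of the whole table were called higher, and 7 without the E20 embryo. For the E20 slope minus the mean E18 slope, 13 of the 111 genes were called higher and 8 lower. It was 3.89 for B3GAT3, 3.19 for HAS3 and −5.81 for CCN4 (limma, adjusted p = 2.33e-05, 0.00321 and 0.000155). Along the sectors ADAMTS9, SPARC and LYVE1 rose by 2.11, 1.48 and 1.27, TNC and STAB1, with means under 5 TPM, rose by 1.52 and 1.17, and UGP2, which makes UDP-glucose, fell by 0.84.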

How the data were processed

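The deposited values are TPM computed by the authors, 1 column per region. Reads were handled with fastp, HISAT2 and StringTie, per the submitters' processing notes, with versions, genome build and annotation not given in the sources used here. No coordinates or sequences are printed. Read counts cannot be had from TPM, which leaves the depth of each region unknown. All columns were matched to labels by stage, embryo, section and sector (0 unmatched).

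Genes at 1 TPM or more in at least 10 regions (15216) were tested as log2(TPM + 1), so fold changes of low genes are understated, by moderated linear models (limma 3.58.1, eBayes with trend, run in R 4.3.3) and Benjamini-Hochberg adjustment over all genes at 0.05. For the stages, regions were averaged per embryo (1 residual degree of freedom), and the errors came mainly from the variance trend over all genes. Section trends had embryo as a block, and sector trends section within embryo. Regions of 1 embryo enter these as independent, which makes their errors and p-values too small. Slopes were compared as the E20 slope minus the mean E18 slope. The models were also run on simulated data, with no result given here, and nothing on the p-values of these regions is read from that. Summaries used Python 3.11.15 with numpy 2.4.6, pandas 2.3.3 and scipy 1.17.1, and figures matplotlib 3.10.9.

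Members, marker lists and matrix lists were chosen with earlier results of these data known. All members are described. Other genes are named as the 3 nearest to each member, and as up to 3 called genes per list and direction with a mean of at least 5 TPM. UGDH, TNC and STAB1 fall outside that rule and were named after their values were seen. Alternatives were a pseudocount of 0.1, no filter or a stricter one (5 TPM in 20 regions), quantile normalization, rescaling without 13 mitochondrially encoded genes, other averages and blocks, a depth covariate, and leaving out each embryo. Leaving out the region with the fewest genes detected in each embryo was added after seeing the data. Of the genes nearest to HAS2 and BGN, 1 each is not reported here.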

Additional observations from a re-analysis of the deposited data

Results flagged for a closer look

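The slope of GPC3 along the sections differed between the stages by −3.15 log2 units (E20 slope minus mean E18 slope), past the threshold of a test of the difference itself (limma, adjusted p = 0.0147). The E20 slope of GPC3 was −3.71, against −0.92 in E18 embryo 1 and −0.19 in E18 embryo 2. In the E20 embryo its section means were 459 to 1018 TPM over sections 1 to 5, with 95.4 for section 6 and 43.9 for section 7. GPC3 was thus lowest in the last 2 E20 sections, where the summed yolk sac endoderm markers also had their lowest medians, and the part of that in the slope was not tested. With an estimated correlation within sections the difference was −3.13 (limma, adjusted p = 0.0138). No other alternative was run on this difference. With a separate block for E20 sections 6 and 7, the section trend of GPC3 over all embryos was −0.26 (limma, adjusted p = 0.944).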

How the results depend on the processing

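Of the tested values of single genes under the alternatives, 68 of 79 for the stages, 111 of 129 for the section trend and 94 of 109 for the sector trend kept their direction and side of the threshold, as did 10 of 10 for the difference of section slopes. For that difference the only alternative run was an estimated correlation within sections. Of 20 stage values with 1 E18 embryo left out, which have no test, 19 kept their direction and that of BGN turned (0.29). With the median over regions, 0 of the 10 genes were called higher and 0 lower between stages, and 0 genes of the table. Calls along the sections were 0 higher and 0 lower with section means, with genes detected as a covariate and with separate E20 blocks, and leaving out 1 embryo gave 0 to 1 higher and 0 to 3 lower, with 0 and 0 without the E20 embryo. Calls along the sectors were 0 to 6 higher and 0 to 1 lower with 1 embryo left out, namely 3 higher without the E20 embryo and 0 in either direction without E18 embryo 2. The direction of BGN turned with quantile normalization for the stages (0.38) and the sections (−0.015), and with 1 embryo left out it ranged over −0.27 to 0.58 along sections and −0.098 to 0.68 along sectors. VCAN ranged over −0.73 to 0.52 along sections and GPC3 over −0.40 to 0.95 along sectors. POSTN lost its sector call with a pseudocount of 0.1 (limma, adjusted p = 0.0526) and with sector numbers as given (0.0531). DCN gained one with quantile normalization (0.0349), without E18 embryo 1 (0.00951) and without the regions with fewest genes detected (0.0425). Along the sections POSTN passed without E18 embryo 1 (0.0362) and GPC4 without E18 embryo 2 (0.0413), while HAS2 lost its call there (0.061). Counts among the 10 genes include LUM and DCN. Of the neighbours named by Pearson's r, 14 of 30 were also named by Spearman's rho. The causes were not tested. No paired analysis was possible because each embryo was sampled at a single stage, and embryo number 1 names a different embryo at E18 and E20. A stage comparison of 1 embryo against 1 gives values with no test. TPM hold no counts, so what depth limits cannot be given as an interval.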
